A study of Mus musculus with 13 samples.

Results

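Amino acid transporter genes were followed in pacemaker cells (PC), which start the heartbeat in the sinoatrial node, and in right atrial cardiomyocytes (RACM), the neighbouring working muscle. The genes are those of 6 solute carrier families, chosen by symbol alone (Slc1a, Slc3a, Slc7a, Slc36a, Slc38a or Slc43a followed by a number), which gave 42 of the 55487 genes in the count table. Of these, 40 had a count in at least 1 library, 30 passed the filter on low counts and were tested among 18015 genes, and 12 were not tested. Both cell types were sorted from neonatal mice carrying an Hcn4-GFP and a Myh6-mCherry reporter, so PC and RACM share both transgenes. Column names in the count table mark the PC libraries as red and green and the RACM libraries as red only. Myh6 drives expression in cardiac muscle, and Hcn4 in the conduction system, so the sort itself separated the cells on the marker used to name them. There were 3 PC and 3 RACM libraries, numbered p0, p2 and p4 in each, and each replicate pooled 8 to 10 hearts. What the p number stands for is not given for these libraries, and p-values measure the spread between these pools.

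Amino acid transporters move amino acids across the plasma membrane or out of lysosomes. Sodium-coupled carriers of the Slc38a family concentrate small neutral amino acids such as glutamine and alanine in the cell. Exchangers of the Slc7a family, built of a light chain that carries out transport and a heavy chain that brings it to the surface, trade amino acids inside the cell for leucine, arginine or cystine outside it. Leucine and arginine in the cell feed mTORC1, the kinase complex that couples amino acid supply to growth. The transcription factor ATF4 raises many transporter genes when amino acids run short.

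Counts per library ranged from 14141151 to 22290996. In the checks of the labelled cell types, 5 of 5 pacemaker genes (Isl1, Tbx3, Shox2, Hcn4, Smoc2) were higher in PC and 5 of 6 working atrial genes lower in PC, while none of 6 general cardiomyocyte genes passed the test (Tnnt2 was higher with the p number as a replicate block). The libraries also differed in markers of other cells. Macrophage markers (11 genes) summed to 28.2, 11.2 and 54.8 CPM (counts scaled to library size) in the PC libraries p0, p2 and p4, against 179, 484 and 827 CPM in the RACM libraries in the same order, and 8 of the 11 were called lower in PC. Fibroblast markers (9 genes) summed to 671, 831 and 1823 CPM in PC, against 1102, 2593 and 7299 CPM in RACM, and 1 of the 9 was called lower in PC, 7 with that block. Of 9 smooth muscle and pericyte markers, 3 were called higher in PC, Myh11 (log2 fold change 2.68), Cspg4 (1.27) and Cnn1 (1.07). The 2 called lower were Pdgfrb (-3.14) and Notch3 (-2.74), both highest in RACM p4. Endothelial markers (9 genes) summed to 83.3, 49.7 and 112 CPM in PC, against 110, 110 and 169 CPM in RACM. Of these, 0 were called higher in PC and 1 lower, Tek (log2 fold change -2.14), which was highest in RACM p4. The 6 cardiomyocyte genes summed to 59635 CPM in RACM p4, against 87043 to 100437 CPM in the other 5 libraries. None of the macrophage and fibroblast markers was at 0 in every PC library, although Fcgr1, Ptprc and C1qa were at 0 in 1 PC library each. The part of such cells in the results below was not tested. In bulk RNA, fewer cells of a type and less RNA per cell cannot be told apart.

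Of the 30 transporter genes tested, 4 were lower in PC and 0 higher (edgeR quasi-likelihood test, adjusted p below 0.05 over all 18015 genes). The 4 were Slc7a7 and Slc7a11, light chains of membrane exchangers, Slc43a3, a nucleobase carrier of the Slc43a family, and Slc1a7, a glutamate transporter gene. They make up 13.3% of the transporter genes tested, while 3.57% of all genes tested were called lower in PC, 3.69% higher and 7.27% in either direction. Of the 4, Slc1a7 and Slc7a11 entered the test through RACM alone, and the share without such genes is given below. The other 26 missed the threshold, with log2 fold changes (PC over RACM) from -3.15 to 1.55. At an unadjusted p under 0.05, 3 were higher in PC and 9 lower, against 10.8% of all genes higher and 10.4% lower. The count of 0 higher became 1 with DESeq2 (6.21% of all genes called higher), 0 with limma-voom (3.45%) and 1 in a fit with the p number as a replicate block (5.96%). With no filter on low counts it became 2 (3.18%). The count of 4 lower became 6 with DESeq2 (6.59% of all genes called lower), 4 with limma-voom (2.48%), 4 with the block (5.6%) and 7 with no filter (3.89%), and it was 2 without PC p2 (1.75%) and 2 without RACM p2 (1.1%).

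The same 4 genes were called lower with the replicate block. The libraries of PC and RACM did not overlap for 10 of the 30 genes (33.3%), against 26.9% of all genes tested. PC lay below RACM for 9 of them, where 13.4% of all genes did so, and above RACM for 1, where 13.6% did. The median log2 fold change was -0.25 over the 30 genes and 0.01 over all genes tested, and the median size of change was 0.66 and 0.39. For 3 of the 30 (Slc1a7, Slc7a11 and Slc7a15) every PC library held under 10 counts, so they entered the test through RACM alone, and for none was this so of RACM. Of the other 27, 2 were called lower (7.41%). Each of the 27 had 10 counts or more in at least 1 PC library, but not always in all 3. Slc43a1, for example, had 38, 5 and 22 counts in PC. The share of all genes under the same restriction was not computed, so the 3.57% over all genes tested is not its match.

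**Figure D1:**
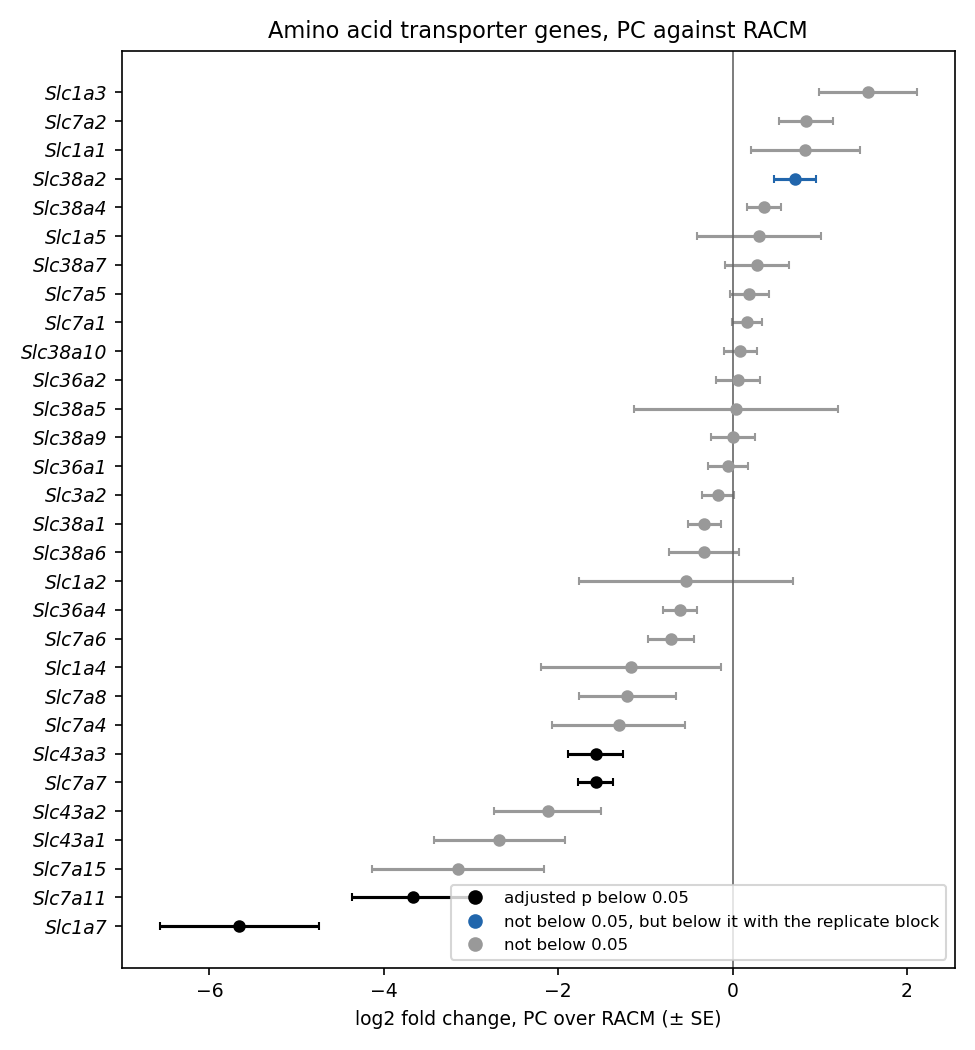
Log2 fold changes of the 30 amino acid transporter genes tested, PC over RACM, on the horizontal axis, 1 gene per row, with bars of 1 standard error. Black points passed the edgeR test (4 genes, all left of 0), the blue point, Slc38a2 at 0.72, passed it with the replicate block, and grey points did not pass. The value of Slc1a7 rests on 2 counts in PC and depends on the prior count of the fit.

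Of the 42 genes, 31 have a promoter in a RefSeq table (build GRCm38.p6, 250 bases before to 50 after each start site), among them 3 of the 4 called genes. The letters TGATGNAA, part of the element that ATF4 binds with a C/EBP partner, were searched on both strands and stood in promoters of 3 of the 31 genes (9.68%), Slc7a7, Slc7a11 and Slc1a4, against 4.51% of the 27025 genes in the table. The E-box CACGTG, which reads the same on both strands, stood in 7 of the 31 (22.6%), Slc1a7 among them, against 8.09% of all genes, and no transporter gene held both. A gene with several start sites was counted once if any of its windows held the letters. A stretch with a match is shown for each of the 3 called genes, 5′ to 3′ on the gene's strand, with the match in capitals. Beside them stands a stretch of Slc38a2, the most abundant transporter transcript, which holds neither. Sequence outside the promoter windows was not searched, so a site elsewhere in a gene would be missed. The Slc7a11 stretch covers the last 100 bases before the start site (chr3:50443614-50443713, minus strand) and holds the letters in both orientations, 66 and 47 bases upstream. That of Slc7a7 (chr14:54418005-54418104, minus strand) ends 61 bases before 1 of its RefSeq start sites, with the match 141 bases upstream. Another match, not shown, begins 1 base before the same start site, which is 243 bases upstream of another RefSeq start site of the gene. Those of Slc1a7 (chr4:107968306-107968405, plus strand, match 60 bases upstream) and Slc38a2 (chr15:96699729-96699828, minus strand) again cover the last 100 bases.
Slc7a11: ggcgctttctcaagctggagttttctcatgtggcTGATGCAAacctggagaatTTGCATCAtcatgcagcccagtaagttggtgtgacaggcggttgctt
Slc7a7: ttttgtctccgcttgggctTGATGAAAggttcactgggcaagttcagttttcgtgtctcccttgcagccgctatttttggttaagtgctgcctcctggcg
Slc1a7: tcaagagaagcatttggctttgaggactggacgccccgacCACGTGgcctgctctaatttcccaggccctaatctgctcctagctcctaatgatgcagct
Slc38a2: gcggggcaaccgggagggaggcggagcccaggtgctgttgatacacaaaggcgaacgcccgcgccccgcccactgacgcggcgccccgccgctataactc

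Sodium-coupled neutral amino acid transporters of the Slc38a family made up most of the transporter transcripts in PC. In TPM, where counts are divided by exon length and scaled to a fixed sum per library, the 11 Slc38a genes held 73.2%, 71.3% and 63.1% of the summed level of the 42 genes in PC p0, p2 and p4, against 60.1%, 52.6% and 44.1% in RACM. TPM shares are compared within libraries. Slc38a2 alone held 47.3%, 43.4% and 37.9% in PC, against 34.8%, 27.7% and 20.9% in RACM. Its share was thus higher in each PC library than in any RACM library, and was lower at p4 than at p0 in both cell types. The next genes by mean level were Slc38a4 at 52.8 ± 10.4 TPM in PC and 49.9 ± 9.67 TPM in RACM, and Slc3a2 at 26.5 ± 1.5 TPM in PC and 35.4 ± 4.54 TPM in RACM (SD, n = 3 each), after Slc38a2 at 139 ± 25.1 TPM in PC and 104 ± 35.6 TPM in RACM. The order of these 3 was alike in PC and RACM, and the SDs of neighbours in it did not meet in either cell type. Below them came Slc38a10 in PC (14.9 ± 4.10 TPM) and Slc7a7 in RACM (34.5 ± 7.30 TPM), the RACM value within 1 SD of that of Slc3a2.

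**Figure D2:**
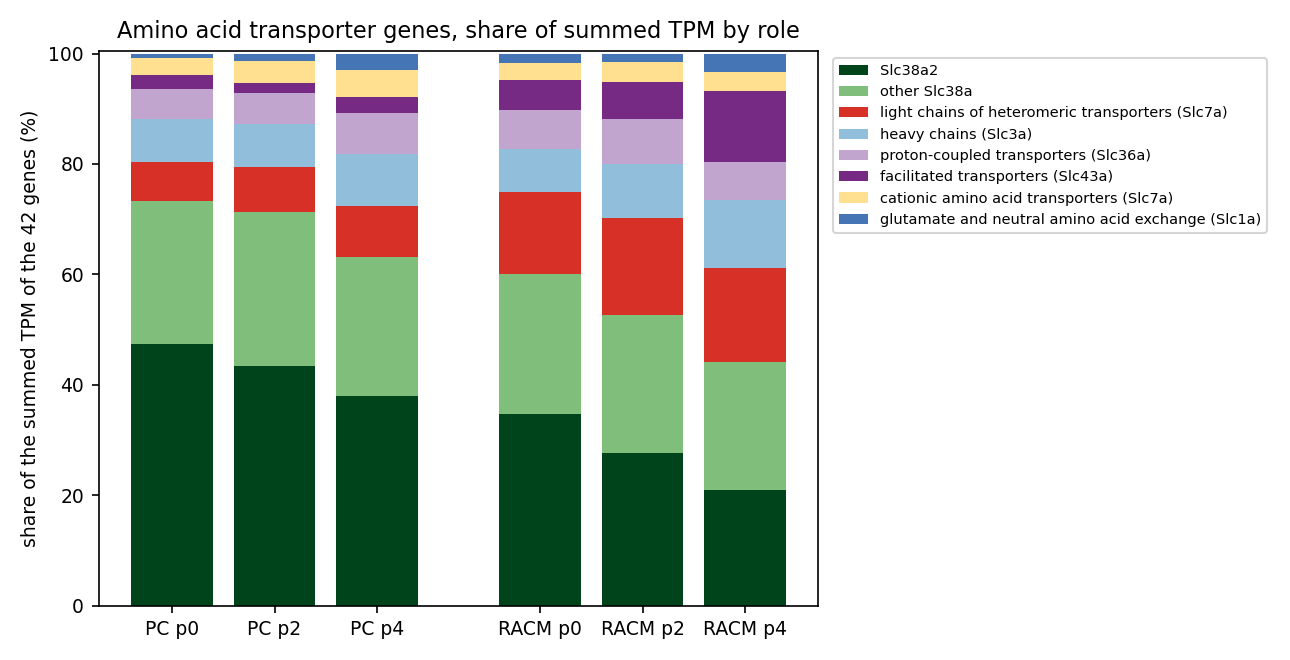
Share of the summed TPM of the 42 transporter genes held by each family or role (vertical axis, %), 1 bar per library, the 3 PC libraries left of the 3 RACM libraries. Slc38a2 (darkest green) takes 37.9% to 47.3% in PC and 20.9% to 34.8% in RACM, and the Slc7a light chains (red) and Slc43a genes (purple) take smaller shares in PC.

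Slc38a2 encodes SNAT2, which takes up small neutral amino acids such as alanine and glutamine with sodium and is known as a target of ATF4 (ENSMUSG00000022462, mm10 chromosome 15 from 96687392 to 96699730, minus strand). In PC p0, p2 and p4 it reached 819.9, 729.5 and 537 CPM, against 548, 410.3 and 311 CPM in the RACM libraries of the same numbers. In both cell types p0 was highest and p4 lowest, and PC p4 lay just below RACM p0, so the groups overlapped. The log2 fold change was 0.72 ± 0.24 (SE) and the gene was not called (edgeR adjusted p = 0.119). Between libraries of the same number, however, PC exceeded RACM by 1.5, 1.78 and 1.72 times, and with the number as a replicate block Slc38a2 was called higher in PC (log2 fold change 0.73, edgeR adjusted p = 0.0082). It also passed with no filter (adjusted p = 0.0235), with DESeq2 (0.0392) and without RACM p0 (0.0495).

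The 7 other Slc38a genes tested did not pass. Slc38a4, a carrier of the same type as Slc38a2, had 142, 141 and 98.5 CPM in PC, against 115, 90.4 and 91.5 CPM in RACM (log2 fold change 0.36, edgeR adjusted p = 0.334). Slc38a1, a glutamine carrier also known as SNAT1, had 104, 74.4 and 76.6 CPM in PC, against 114, 115 and 89.2 CPM in RACM (log2 fold change -0.32, edgeR adjusted p = 0.385). The 3 genes lie near each other on chromosome 15, with 44.5 kb between Slc38a1 and Slc38a2 and 295 kb between Slc38a2 and Slc38a4, and their estimates differ in sign. Slc38a9, a lysosomal arginine sensor for mTORC1, stood at a log2 fold change of 0.01, Slc38a7, a lysosomal carrier of glutamine and asparagine, at 0.28, Slc38a10 at 0.09 and Slc38a6 at -0.33. Slc38a5, a system N carrier of glutamine, had 37, 0 and 38 counts in PC, against 7, 15 and 49 in RACM, so its value of 0.04 has an SE of 1.17. Slc38a3, Slc38a8 and Slc38a11 were not tested. Slc38a3 totalled 34 counts in PC and 26 in RACM, Slc38a8 0 and 5, and Slc38a11 15 and 1, of which 14 were in PC p0.

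**Figure D3:**
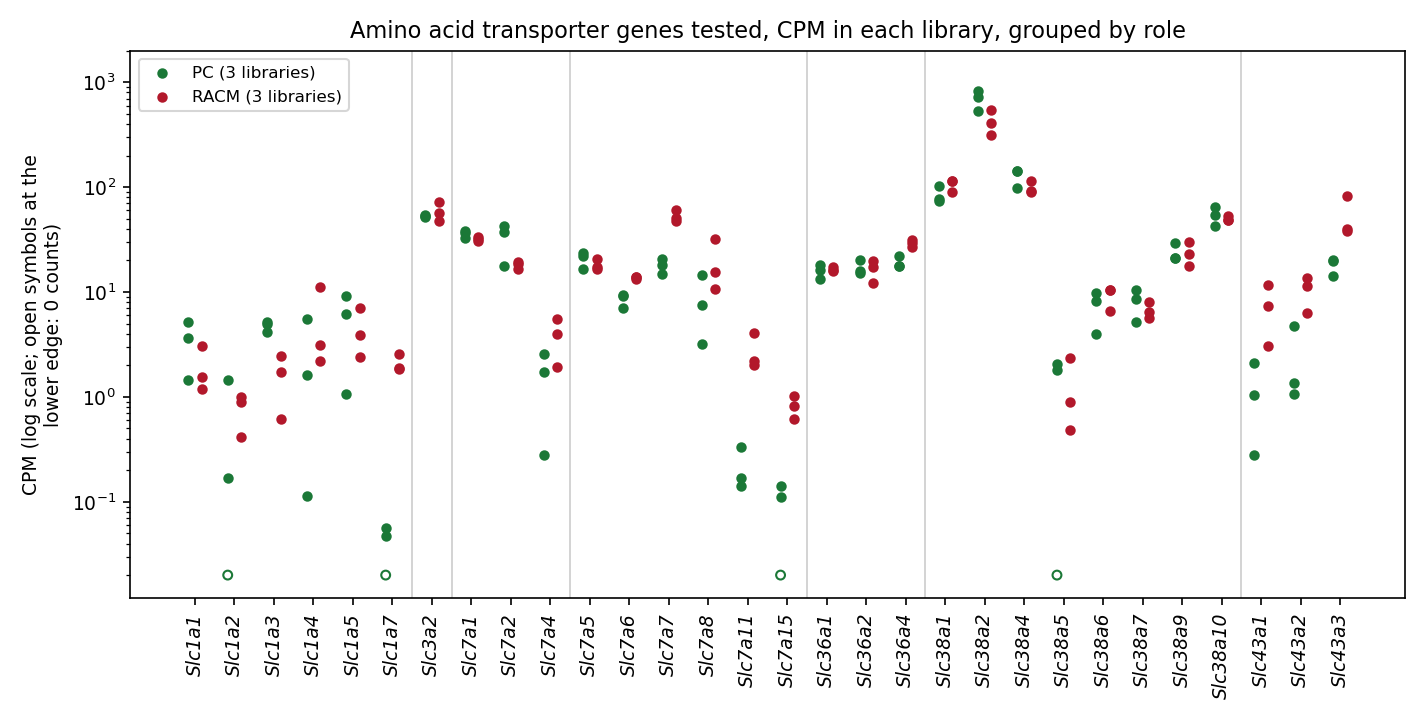
CPM of the 30 transporter genes tested (vertical axis, log scale), 1 point per library, PC in green to the left of RACM in red, grouped by family or role, with open symbols at the lower edge for 0 counts. Slc38a2 lies highest in both cell types. The 3 PC points lie below all 3 RACM points for Slc7a6, Slc7a7, Slc7a11, Slc7a15, Slc1a7, Slc36a4 and all 3 Slc43a genes.

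The light chains of the Slc7a family include 2 of the 4 genes called lower in PC. Slc7a7 encodes y+LAT1, which sends arginine and lysine out in exchange for neutral amino acids and sodium (ENSMUSG00000000958, chromosome 14 from 54369442 to 54417780, minus strand). In PC p0, p2 and p4 it stood at 14.8, 18.1 and 20.8 CPM, against 51.2, 61.0 and 47.1 CPM in RACM. The groups lay far apart, at 17.9 ± 3.01 CPM in PC, against 53.1 ± 7.12 CPM in RACM (SD, n = 3 each). The log2 fold change was -1.57 ± 0.20, which is 2.97 times higher in RACM (edgeR adjusted p = 0.00282). This call was kept in all 14 alternatives, with log2 fold changes from -1.80 to -1.45. Slc7a7 was lowest within RACM in p4 (47.1 CPM), where the macrophage markers (827 CPM) and the fibroblast markers (7299 CPM) were highest. Within PC it was highest in p4 (20.8 CPM), as were both marker sums (54.8 and 1823 CPM). The part of such cells in the level of Slc7a7 was not tested. Of its exon bases, 7% are shared with Oxa1l, and reads there cannot be assigned without strand.

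Slc7a11 encodes xCT, which takes up cystine in exchange for glutamate and so supplies cysteine for glutathione (ENSMUSG00000027737, chromosome 3 from 49892526 to 50443614, minus strand). It was low in both cell types, with 6, 3 and 3 counts in PC, against 32, 34 and 85 counts in RACM. These are 0.334, 0.169 and 0.142 CPM in PC, against 2.21, 2.03 and 4.08 CPM in RACM, with no overlap. The 12 counts in PC and 151 in RACM give a level 13.7 times higher in RACM, with a 95% counting interval of 7.64 to 27.2, and the fitted log2 fold change was -3.66 ± 0.71 (edgeR adjusted p = 0.0173). It was highest in RACM p4, as were the macrophage and fibroblast markers. Within PC, where those markers were highest in p4, p2 and p4 held 3 counts each. The part of macrophages and fibroblasts in its level was not tested. Without RACM p4 the log2 fold change was -3.27, and Slc7a11 was not called (adjusted p = 0.105). It was also not called without PC p2 (0.0506), without RACM p2 (0.0581), without both p4 libraries (0.126) or with limma-voom (0.0505).

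Slc3a2, the CD98 heavy chain that these light chains need at the cell surface (ENSMUSG00000010095, chromosome 19 from 8706882 to 8723369), did not pass. It had 53.8, 51.5 and 52.9 CPM in PC, against 48.1, 56.3 and 72.8 CPM in RACM (log2 fold change -0.17 ± 0.19, edgeR adjusted p = 0.689). Slc7a5, the leucine exchanger LAT1 (ENSMUSG00000040010, chromosome 8 from 121881150 to 121907694), had 23.8, 16.7 and 22.0 CPM in PC, against 20.8, 16.5 and 17.3 CPM in RACM (log2 fold change 0.19 ± 0.22, edgeR adjusted p = 0.703). Values of PC and RACM overlapped for both genes. Slc7a6, which encodes y+LAT2, the closest relative of y+LAT1, had 7.01, 9.37 and 9.10 CPM in PC, against 14.0, 14.1 and 13.4 CPM in RACM, with no overlap, but was not called (log2 fold change -0.70 ± 0.26, edgeR adjusted p = 0.154). Slc7a8, the neutral exchanger LAT2, had 7.57, 14.5 and 3.21 CPM in PC, against 10.7, 15.7 and 31.8 CPM in RACM (log2 fold change -1.21 ± 0.56, edgeR adjusted p = 0.257). It passed with no filter alone (adjusted p = 0.0483). It lies 304 kb from Slc7a7 on chromosome 14.

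Per length and within a library, the 6 light chains that pair with Slc3a2 (Slc7a5, Slc7a6, Slc7a7, Slc7a8, Slc7a10 and Slc7a11) summed to 91.5%, 105% and 99.6% of the TPM of Slc3a2 in PC p0, p2 and p4, against 194%, 184% and 139% in RACM. Slc7a7 alone was 29.2%, 37.5% and 41.8% of Slc3a2 in PC, against 113%, 115% and 68.9% in RACM. Slc7a5 was 42%, 30.9% and 39.6% in PC, against 41.2%, 27.9% and 22.6% in RACM. With Slc7a7 left out, the other light chains came to 62.3%, 67.8% and 57.8% in PC, against 80.5%, 68.5% and 69.9% in RACM, where the highest PC library (67.8%) and the lowest RACM library (68.5%) nearly meet. In PC, Slc7a7 and Slc7a5 were thus at similar levels, at 9.63 ± 2.14 and 9.88 ± 1.21 TPM. In RACM, Slc7a7 was at 34.5 ± 7.30 TPM and Slc7a5 at 10.5 ± 1.85 TPM.

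**Figure D4:**
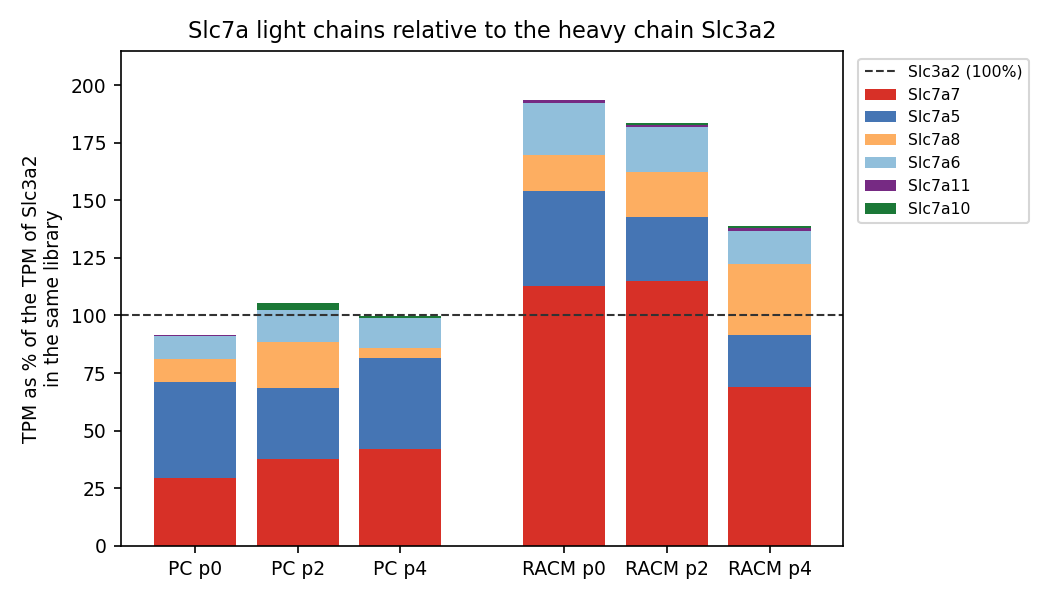
TPM of the 6 light chains that pair with Slc3a2, stacked as a percentage of the TPM of Slc3a2 in the same library (vertical axis), with the 3 PC libraries left of the 3 RACM libraries and a dashed line at 100%. The stacks reach 91.5% to 105% in PC and 139% to 194% in RACM, with Slc7a7 (red) at 29.2% to 41.8% in PC and 68.9% to 115% in RACM.

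The remaining genes of this Slc7a branch were near the lower limit of counting. Slc7a15 had 5 counts in PC and 43 in RACM, 9.39 times higher in RACM with a counting interval of 3.73 to 30.4, and missed the threshold (edgeR adjusted p = 0.0971). Slc7a10, which encodes the small neutral amino acid exchanger Asc-1, had 21 counts in PC and 11 in RACM, and Slc7a9, which pairs with the heavy chain Slc3a1, had 0 and 4. Slc3a1 itself had 17 counts in PC and 26 in RACM. Slc7a12 and Slc7a13 had 0 counts in all 6 libraries. Of these genes, Slc7a15 alone was tested.

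Slc43a genes encode facilitated carriers that need no ion gradient, and all 3 lay lower in each PC library than in any RACM library, but 1 was called. Slc43a3, known from other cells as a carrier of purine nucleobases and not of amino acids (ENSMUSG00000027074, chromosome 2 from 84936579 to 84958509, plus strand), had 19.7, 14.3 and 20.1 CPM in PC, against 38.5, 39.9 and 81.8 CPM in RACM. Its log2 fold change was -1.57 ± 0.32 (edgeR adjusted p = 0.0203, and 0.00649 with the block). RACM p4, the library with the most macrophage and fibroblast marker counts, was again the highest, and without it Slc43a3 was still called. RACM p0 and p2 held 179 and 484 CPM of macrophage markers, above each PC library, so that fit does not take such cells out. Their part was not tested. The call was lost when any 1 PC library was left out (adjusted p = 0.0749 without p0, 0.0712 without p2 and 0.0507 without p4).

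Slc43a1, which encodes the large neutral amino acid carrier LAT3, had 2.12, 0.282 and 1.04 CPM in PC, against 3.03, 7.40 and 11.6 CPM in RACM. Slc43a2, which encodes the related LAT4, had 4.79, 1.07 and 1.37 CPM in PC, against 6.34, 11.4 and 13.6 CPM in RACM. For both genes the order of the RACM libraries, with p0 lowest and p4 highest, was that of the macrophage and fibroblast marker sums. Within PC both genes were highest in p0 and both marker sums in p4. The part of such cells in these levels was not tested. The log2 fold changes were -2.68 ± 0.75 for Slc43a1 (edgeR adjusted p = 0.0679) and -2.12 ± 0.61 for Slc43a2 (edgeR adjusted p = 0.0742). Both passed with no filter (adjusted p = 0.00285 for Slc43a1 and 0.00426 for Slc43a2) and with DESeq2 (0.00266 and 0.00474 in the same order). Slc43a2 also passed with limma-voom (0.0438), with the stricter filter (0.0435) and without PC p0 (0.0267). Slc43a1 and Slc43a3 lie 73.0 kb apart on chromosome 2, and 9.18% of the exon bases of Slc43a2 are shared with Gm45606.

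The Slc1a family carries glutamate, with sodium and against its gradient, or exchanges alanine, serine and cysteine. Slc1a7, which encodes EAAT5, a glutamate transporter best known from the retina (ENSMUSG00000008932, chromosome 4 from 107968332 to 108013532, plus strand), had 1, 0 and 1 counts in PC p0, p2 and p4, against 27, 43 and 39 counts in RACM. The RACM level was 1.86, 2.56 and 1.87 CPM, low but present in each library, and was not highest in p4. The ratio of 2 counts to 109 makes it 59.5 times higher in RACM, with a counting interval of 16.1 to 497 (edgeR adjusted p = 0.00811). Without RACM p2 it was not called (adjusted p = 0.0525).

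The glial glutamate transporter gene Slc1a3 (EAAT1) was the 1 tested transporter gene with every PC library above every RACM library. It had 4.18, 4.91 and 5.14 CPM in PC, against 0.620, 1.73 and 2.45 CPM in RACM, and was not called (log2 fold change 1.55 ± 0.56, edgeR adjusted p = 0.144, and 0.086 with the block). Schwann cell markers (5 genes, of which none was called) summed to 3.84, 10.9 and 8.87 CPM in PC, against 8.41, 10.4 and 12.5 CPM in RACM, with the groups overlapping. Slc1a5, the glutamine exchanger ASCT2, had 1.06, 6.21 and 9.20 CPM in PC, against 3.86, 2.39 and 7.05 CPM in RACM, and its log2 fold change was 0.30 ± 0.72 (edgeR adjusted p = 0.862). PC p0 lay below all RACM libraries and PC p4 above them. Slc1a1 (EAAT3) had a log2 fold change of 0.83 ± 0.63, Slc1a2 (EAAT2) -0.53 ± 1.23 and Slc1a4 (ASCT1) -1.17 ± 1.04, all short of the threshold. Of the exon bases of Slc1a1, 31.9% are shared with 4430402I18Rik. Slc1a6 was not tested, with 0 counts in PC and 11 in RACM.

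**Figure D5:**
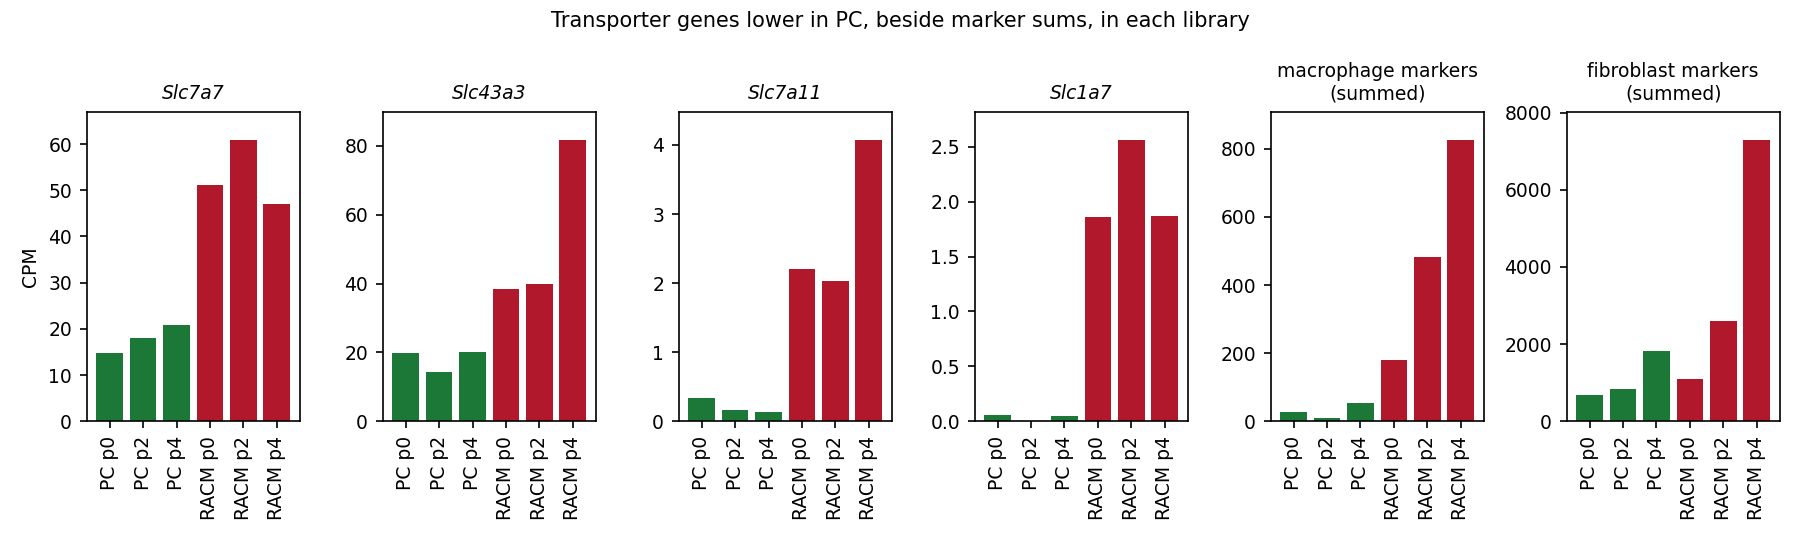
CPM in each library (vertical axes, separate scales starting at 0) of the 4 transporter genes called lower in PC and of the summed macrophage and fibroblast markers, with PC in green to the left of RACM in red. The markers are highest in RACM p4 (827 and 7299 CPM), as are Slc43a3 and Slc7a11, whereas Slc7a7 and Slc1a7 are highest in RACM p2 (61.0 and 2.56 CPM).

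Cationic amino acid transporters such as those encoded by Slc7a1 and Slc7a2 bring arginine and lysine into the cell. No gene placed in this group passed the test. Slc7a1, the widely expressed CAT1, had 38.5, 32.5 and 36.9 CPM in PC, against 31.9, 30.9 and 33.2 CPM in RACM (log2 fold change 0.17 ± 0.17, edgeR adjusted p = 0.650). Slc7a2, which encodes CAT2, had 17.7, 42.9 and 37.1 CPM in PC, against 16.5, 18.7 and 19.3 CPM in RACM. PC p2 and PC p4 stood above all RACM libraries, and PC p0 among them, and the log2 fold change was 0.84 ± 0.31 (edgeR adjusted p = 0.151). Slc7a2 passed without PC p0 (adjusted p = 0.0353) and with no filter (0.0473). For Slc7a4 the log2 fold change was -1.31 ± 0.76 (edgeR adjusted p = 0.387), with 13.3% of its exon bases shared with P2rx6. Slc7a3 had 7 counts in PC and 16 in RACM, and Slc7a14 had 0 and 14. Neither was tested.

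Of the 4 proton-coupled transporter genes, 3 were tested and none passed. Slc36a1 (PAT1), which exports small amino acids from lysosomes, and Slc36a2 (PAT2) had log2 fold changes of -0.05 ± 0.23 and 0.06 ± 0.25. Slc36a4 (PAT4) had 22.0, 17.7 and 17.9 CPM in PC, against 26.7, 29.3 and 31.5 CPM in RACM, with no overlap but short of the threshold (log2 fold change -0.61 ± 0.19, edgeR adjusted p = 0.105). Slc36a3, which lies 6.76 kb from Slc36a2 on chromosome 11, had 1 count in PC and 10 in RACM and was not tested.

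Amino acid carriers of other families were described from a list of 28 genes, of which 17 were tested. There 1 was higher in PC and 2 lower, with a median log2 fold change of 0.05, where 3.69% of all genes tested were called higher and 3.57% lower. These shares also stand beside the counts of the 3 lists that follow. Slc6a17, a sodium-coupled neutral amino acid carrier of synaptic vesicles in the brain, had 81.8, 116.8 and 95.9 CPM in PC, against 8.13, 12.1 and 8.59 CPM in RACM. The log2 fold change was 3.35 ± 0.23 (edgeR adjusted p = 9.9e-05). Summed neuron markers (6 genes, 3 of them tested and 1 called higher in PC) came to 139.7, 96.5 and 113 CPM in PC, against 12.7, 9.72 and 9.40 CPM in RACM. Nearly all of the PC sum was Uchl1, and the other 5 came to 5.9, 3.55 and 2.69 CPM in PC, against 6.69, 5.01 and 4.08 CPM in RACM. Prph was at 0 in all PC libraries and Snap25 in all RACM libraries, and their part in the level of Slc6a17 was not tested. Slc25a13, a mitochondrial aspartate and glutamate exchanger, had 1.06, 1.75 and 3.54 CPM in PC, against 15.7, 9.42 and 12.4 CPM in RACM (log2 fold change -2.55 ± 0.49, edgeR adjusted p = 0.0167). It was not called without PC p0 (0.0538) or without PC p2 (0.0548). Its close relative Slc25a12 averaged 271 ± 18 CPM in PC, against 181 ± 43.2 CPM in RACM (SD, n = 3 each) and was called higher with the block (edgeR adjusted p = 0.0276, against 0.11 without it). The other gene called lower was Slc6a9, a glycine transporter, at -2.73 ± 0.70 on the log2 scale (edgeR adjusted p = 0.049), which lost its call with the block (0.0573), without any 1 library other than RACM p0 (0.0844 to 0.238) and with limma-voom (0.106), and 30.2% of its exon bases are shared with another gene.

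Among genes of amino acid metabolism, 28 of 31 were tested, 1 was higher in PC and 0 lower. With the block the counts were 2 higher and 2 lower. Got2, the mitochondrial aspartate aminotransferase, averaged 472 ± 73.9 CPM in PC, against 257 ± 72.1 CPM in RACM (log2 fold change 0.88 ± 0.22, edgeR adjusted p = 0.047). It was not called without any 1 library other than RACM p0 (0.0608 to 0.194). In the list of ATF4 and the amino acid response, 25 of 29 were tested, 0 were higher in PC and 2 lower, with a median log2 fold change of -0.00488. These were Ppp1r15a, a phosphatase subunit that restores translation, at 34.1 ± 2.55 CPM in PC, against 65.6 ± 9.82 CPM in RACM (edgeR adjusted p = 0.0147), and Cebpb, a C/EBP transcription factor, at 0.502 ± 0.151 CPM in PC, against 2.68 ± 0.486 CPM in RACM (0.0451). Cebpb was not called with the block (0.0598) or without any 1 library (0.0818 to 0.166). Ppp1r15a was not called when 1 library was left out, except for PC p4 and RACM p0 (0.0507 to 0.0613). Of the exon bases of Cebpb, 20.7% are shared with another gene. Of the 39 genes listed for amino acid sensing by mTORC1, 37 were tested, 1 was higher and 1 lower, and with the block 1 was higher and 2 lower. Rptor, the scaffold subunit of mTORC1, averaged 75.7 ± 9.48 CPM in PC, against 43.01 ± 1.41 CPM in RACM (log2 fold change 0.81 ± 0.16, edgeR adjusted p = 0.0195), and Castor2, a relative of the arginine sensor Castor1, averaged 36.1 ± 4.45 CPM in PC, against 64.9 ± 8.89 CPM in RACM (log2 fold change -0.85 ± 0.18, edgeR adjusted p = 0.0255). Castor2 was not called without any 1 library (0.0527 to 0.0812), nor Rptor without any 1 library other than PC p4 or RACM p0 (0.0551 to 0.102).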

How the data were processed

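Per the file headers, the authors counted fragments on mm10 exons with featureCounts 2.0.1, without strand and without multimapping reads, and deposited raw counts by Ensembl gene ID. The submitters' processing notes also name Trimmomatic, HISAT2 and edgeR. Low genes were removed with filterByExpr, grouped by cell type. A gene was kept with at least 15 counts in total and at least 10 counts, scaled to library size, in 3 or more libraries. The 18015 genes kept were TMM-scaled and fitted with glmQLFit and glmQLFTest of edgeR 4.0.16 under R 4.3.3. Tests were 2-sided, and p-values were adjusted by Benjamini-Hochberg over all of them, with a threshold of 0.05. CPM uses TMM-scaled library sizes. TPM was computed from counts and exon length without TMM, so it is compared within libraries. Ratios of counts have exact binomial 95% intervals. They cover counting error only.

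The transporter genes, lists and markers were chosen with earlier results of these data known. Transporter genes past the threshold, Slc3a2, Slc7a5, Slc1a5, Slc7a1 and Slc38a2 were to be named in full, and of each other list the 2 called genes of smallest p and the first of opposite sign. Slc25a12 and Slc6a9, and the library values of other transporter genes, were added after values were seen. The alternatives tried were 2 other scalings (RLE, upper-quartile), no filter, a stricter filter (5 CPM in all PC or all RACM libraries), the replicate block, DESeq2 1.42.0, limma-voom (limma 3.58.1) and each library left out. The fit without both p4 libraries was chosen after seeing the data. Deviations from cell type means correlated by 0.156, 0.234 and 0.237 between PC and RACM of p0, p2 and p4. Between PC and RACM of unlike numbers the correlations were -0.185 to -0.00147. Deviations from a mean of 3 libraries sum to 0, so matched and unmatched values are not independent. The replicate block treats the numbers as pairs, whereas the main fit, which gave the calls, does not. No label states this pairing. The fits were tested on simulated data. Changes were set there only in genes at higher levels than Slc7a11 and Slc1a7. Recovery of changes at levels as low as theirs was not simulated. ATAC-seq samples of the series (7) were not analysed here.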

Additional observations from a re-analysis of the deposited data

How the results depend on the processing

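The number of all genes called, 1309, became 2339 with no filter, 2082 with the replicate block, 2304 with DESeq2, 734 without both p4 libraries, and 511 to 1338 with 1 library left out. The number of transporter genes higher in PC, 0, became 2 with no filter (Slc38a2 and Slc7a2), 1 with the replicate block (Slc38a2), 1 with DESeq2 (Slc38a2) and 0 to 1 with 1 library left out. The number lower, 4, became 7 with no filter and 2 to 4 with 1 library left out. It was 2 without PC p2 and 2 without RACM p2, where 1.75% and 1.1% of all genes were called lower. None of the called transporter and list genes named here changed direction, and of the single-gene values under the alternatives, 465 stayed on the same side of the threshold, 52 lost a call and 16 gained one. The replicate block changed no other transporter call. The cause of these changes was not tested. Slc7a11 and Slc1a7 were not tested under the stricter filter. No exact permutation test of a single value is given, since 3 against 3 libraries allow no p under 0.1. At 12 counts or fewer in PC, the levels of Slc7a11, Slc1a7 and Slc7a15 are set by counting error as well as by the spread between pools.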
